A study of Mus musculus with 35 samples.

Results

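The single zygotes injected with Kdm5b-yfp mRNA were compared with the single zygotes injected with water. The members are the libraries whose names carry the marks for an injected or a control zygote, 20 of the 35 samples of the series, 10 in each group. All were in vivo fertilised wild-type C57BL/6NRj embryos. Kdm5b zygotes received in vitro transcribed mRNA for KDM5B fused to YFP at about 1150 ng/µl into the cytoplasm, and control zygotes received the nuclease-free water in which that mRNA had been eluted. Both groups were collected 5 to 6 h after injection, 17 h after ovulation, 1 zygote per library, without the zona pellucida. The controls received no mRNA of any kind, so a response to KDM5B and a response to injected mRNA cannot be told apart in these libraries. The other 15 samples are 2C embryos, 9 water-injected and 6 Kdm5b-injected, that came from frozen and thawed zygotes and were prepared on another day, some of them as pools of blastomeres.

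KDM5B is a demethylase that removes methyl groups from lysine 4 of histone H3 (H3K4). Trimethylation of that residue (H3K4me3) marks active promoters in most cells, whereas the mouse oocyte and zygote also carry it in broad domains. The zygote lives largely on RNA stored by the oocyte, transcription from its own genome has barely begun, and much of the maternal RNA is translated, held in store or degraded on a schedule. A lower level of a transcript in a zygote can therefore come from less stored RNA, faster decay or less synthesis, which counts at a single time do not separate. Values below are CPM, counts with the Kdm5b row removed and scaled by library size and by a TMM factor for each library, so they compare relative levels and not amounts per zygote.

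The sequences that the results refer to are given first. Replication-dependent histone mRNAs end in a conserved stem-loop instead of a poly(A) tail, and the histone family had the highest median of the gene groups below. Letters for this stem-loop (GGNNCTTTTNAGNGCC, searched on the sense strand of all GENCODE transcripts of a gene) were found in 48 of 24156 genes with a transcript (0.199%), 27 of them in the list of histone genes. The stem-loops of 5 histone genes follow with the 16 matching bases in capitals and the next bases in lower case, from GENCODE transcripts, with the GRCm38 position of the capitals: Hist1h2bk at chr13:22036300-22036315 (plus strand), Hist1h2ac at chr13:23683477-23683492 (minus), H2afx at chr9:44335240-44335255 (plus), Hist4h4 at chr6:136803998-136804013 (minus) and Hist1h4c at chr13:23698089-23698104 (minus).
Hist1h2bk: GGCTCTTTTAAGAGCCacta
Hist1h2ac: GGCTCTTTTCAGAGCCccca
H2afx: GGCCCTTTTAAGGGCCacca
Hist4h4: GGCCCTTTTCAGGGCCcaca
Hist1h4c: GGCCCTTTTCAGGGCCaccc

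Because KDM5B acts on a mark of promoters, the CpG content of promoters was also described. Promoters run from 250 bases before to 50 bases after the RefSeq start (GRCm38.p6). Those of Krt84 and Sympk are printed with every CG in capitals, as they lie at the 2 ends of the range among the called genes, with 3 and 38 CpG in 300 bases. The promoter of Krt84 lies at chr15:101532771-101533070 on the minus strand and that of Sympk at chr7:19024127-19024426 on the plus strand.
Krt84: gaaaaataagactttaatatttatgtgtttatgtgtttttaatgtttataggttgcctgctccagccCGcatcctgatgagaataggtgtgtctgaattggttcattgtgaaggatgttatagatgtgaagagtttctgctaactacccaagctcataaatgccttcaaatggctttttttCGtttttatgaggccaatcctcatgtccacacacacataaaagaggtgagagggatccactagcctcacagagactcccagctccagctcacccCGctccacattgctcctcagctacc
Sympk: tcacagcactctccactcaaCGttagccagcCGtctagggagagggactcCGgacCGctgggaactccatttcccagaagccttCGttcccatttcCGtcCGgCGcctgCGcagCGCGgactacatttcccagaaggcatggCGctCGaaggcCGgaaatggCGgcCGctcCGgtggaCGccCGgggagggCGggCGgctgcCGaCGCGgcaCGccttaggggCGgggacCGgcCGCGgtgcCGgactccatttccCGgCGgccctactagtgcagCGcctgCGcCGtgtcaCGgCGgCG

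Reads of the injected mRNA marked every library as labelled. Kdm5b took between 2.30% and 10.4% of the gene counts of the Kdm5b zygotes, with a median of 3.91%, and at most 0.00137% in the control zygotes. The groups did not overlap (two-sided permutation test, 100000 resamples, p = 2e-05, the smallest these resamples can give, adjusted p = 0.00014 over 7 measures). The share at collection therefore differed by more than 4 times among injected zygotes, and the zygote's own Kdm5b RNA could not be separated from it.

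Apart from Kdm5b, depth overlapped between the groups. Gene counts without Kdm5b came to 12597159 to 17797439 in control and 10966013 to 16004780 in Kdm5b zygotes (permutation test p = 0.244, adjusted p = 0.368), and the number of genes with a count did not differ beyond the spread between zygotes (p = 0.263, adjusted p = 0.368). All 10 oocyte markers (Gdf9, Zp3, Nlrp5 and others) were above the filter, and their summed level was 7155 to 8668 CPM in control and 7724 to 9398 CPM in Kdm5b zygotes. Of 10 cumulus and granulosa cell markers 2 passed the filter, with a summed level of 19.2 to 31.5 and 21.0 to 39.3 CPM for all 10. A longer list of 27 such markers had 5 tested, 4 higher estimates, 0 at an unadjusted p under 0.05 (edgeR) and a median of 0.128, the third highest of the lists described below, with summed levels of 152 to 234 CPM in control and 192 to 262 CPM in Kdm5b zygotes. Its part in the histone and oocyte coat lists, whose estimates were higher too, was not tested. Sperm markers summed to at most 14.4 CPM, with Tnp2 and Smcp at 0 in every zygote, and markers of the later 2-cell embryo to at most 21.6 CPM. None of these markers passed the test, and 3 oocyte markers were higher and 1 lower at an unadjusted p under 0.05. Control zygote 3 and Kdm5b zygote 8 lay farthest from their groups, at a root mean square distance of 0.368 and 0.365 in log2 CPM. They are called the 2 libraries that lie apart below, although control zygotes 4 (0.349) and 10 (0.342) lay nearly as far. Only some results are given without them. Control zygotes 3, 4, 8 and 10 had the fewest genes with a count among controls, 13869 to 14485 against 15442 to 16173 in the others. No fit left these controls out together. The labels call the zygotes biological replicates without naming mothers or litters, and p-values measure the spread between these zygotes.

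Of 11933 genes tested, 16 passed an adjusted p of 0.05 (edgeR quasi-likelihood test, Benjamini-Hochberg). The 14 that fell are 0.117% of the genes tested and the 2 that rose are 0.0168%. All but 4 of the lower genes (Lama5, Smc4, Nrd1 and Mcm3ap) fell by less than 0.5 on the log2 scale. A further set of genes, 566 higher (4.74%) and 668 lower (5.6%) with the called ones included, had an unadjusted p under 0.05. Over all genes tested, the log2 fold changes had a median of 0.01. The plot of the called genes shows each zygote.

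**Figure D1:**
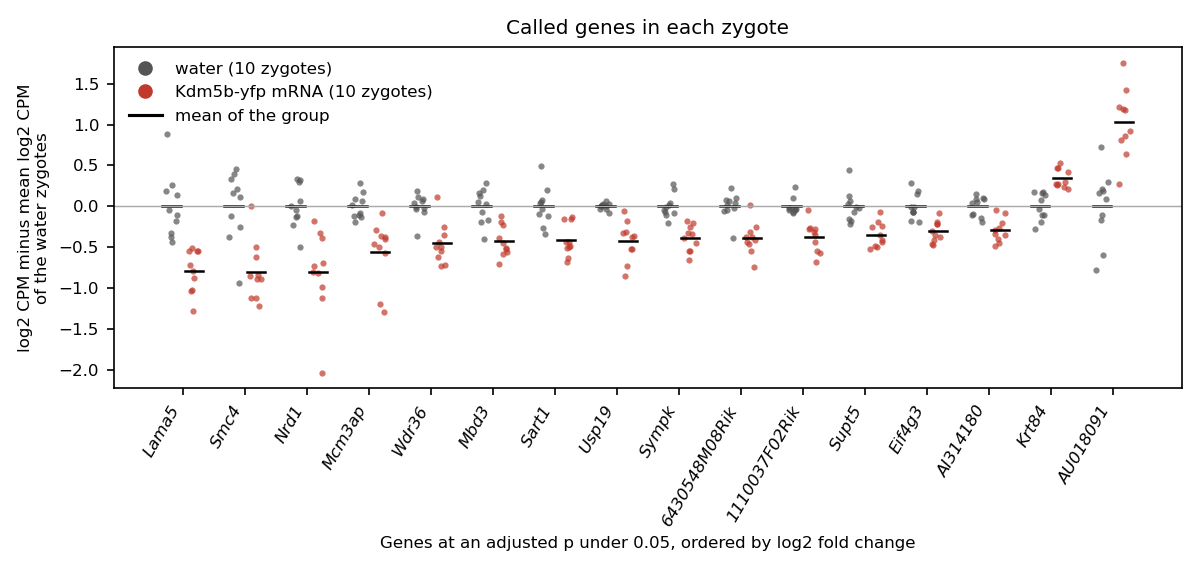
Level of each of the 16 called genes in each of 20 zygotes, as log2 CPM minus the mean log2 CPM of the 10 water zygotes (y axis), with genes on the x axis, grey points for water, red points for Kdm5b-yfp mRNA and black lines for group means. The red points of Lama5 lie below all grey points and those of Krt84 above all of them, while the 2 groups overlap in the other 14 genes.

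Lama5 (mm10 chr2:180176373-180225859, minus strand) encodes the alpha-5 chain of laminin, a protein of basement membranes. It was at 35.8 CPM in the lowest, 46.2 in the median and 90.1 in the highest control zygote, against 20.1, 28.8 and 34.0 CPM in Kdm5b zygotes. All 10 Kdm5b zygotes were below every control. The level was 43.4% lower, a log2 fold change of -0.82 ± 0.13 (SE, n = 10 and 10, edgeR adjusted p = 0.00653), and -0.65 without the 2 libraries that lie apart. Only 2 lower genes had groups that did not overlap (0.0168% of the genes tested), Lama5 and Cand1, which was not called and was named after its values were seen.

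Smc4 (chr3:69004972-69034623, plus strand), a core ATPase of the condensin complexes that compact chromosomes, spanned 236 to 621 CPM with a median of 498 in control zygotes and 194 to 453 CPM with a median of 246 in Kdm5b zygotes. The groups overlapped in that 3 Kdm5b zygotes were below the lowest control and all 10 below the control median. The log2 fold change was -0.82 ± 0.14 (edgeR adjusted p = 0.00803). Usp19 (chr9:108490676-108502337, plus strand), a deubiquitinase, had the tightest controls, from 1022 to 1123 CPM around a median of 1081. Kdm5b zygotes ran from 594 to 1033 CPM around 835, and 9 of 10 were below every control. Usp19 was 24.7% lower (log2 fold change -0.41 ± 0.07, adjusted p = 0.00653).

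Next come 1110037F02Rik, Sympk and Mcm3ap. 1110037F02Rik (chr4:11485958-11551143, plus strand), named Virma in RefSeq, encodes a subunit of the complex that writes N6-methyladenosine into mRNA. Its controls were at 181, 188 and 226 CPM (lowest, median, highest) and Kdm5b zygotes at 120, 152 and 186 CPM, with 9 of 10 below every control (log2 fold change -0.37 ± 0.06, edgeR adjusted p = 0.00803). Sympk encodes symplekin, a scaffold of the machinery that cuts the 3′ ends of mRNAs, histone mRNAs included. It was at 68.6, 78.0 and 96.2 CPM in control and 50.3, 61.9 and 70.3 CPM in Kdm5b zygotes (-0.39 ± 0.07, adjusted p = 0.0175), and 8 of 10 Kdm5b zygotes were below every control. Mcm3ap encodes the scaffold of an mRNA export complex. Its control values were 240, 266 and 333 CPM and its Kdm5b values 111, 203 and 258 CPM (-0.52 ± 0.11, adjusted p = 0.0306), again with 9 of 10 Kdm5b zygotes below the controls.

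The other 8 genes that fell are given more briefly. Sart1, a component of the spliceosome's tri-snRNP, fell by 0.42 on the log2 scale (edgeR adjusted p = 0.0335), and Supt5, a subunit of the factor that controls pausing of RNA polymerase II, by 0.35 (adjusted p = 0.0348). Eif4g3, a scaffold of translation initiation, fell by 0.31 (adjusted p = 0.0306). Wdr36, which acts in ribosome assembly, fell by 0.44 (adjusted p = 0.0306). AI314180, named Ecpas in RefSeq, encodes a proteasome adaptor and fell by 0.29 (adjusted p = 0.0272). Mbd3, a subunit of the NuRD remodelling complex, fell by 0.43 (adjusted p = 0.0306). Nrd1 (chr4:109000805-109061771, plus strand), the protease nardilysin, was at 30.2, 42.04 and 53.8 CPM in control and 10.4, 25.1 and 37.5 CPM in Kdm5b zygotes (-0.75 ± 0.15, adjusted p = 0.0272), and 6430548M08Rik fell by 0.38 (adjusted p = 0.0378). In each of these 8 genes the groups overlapped.

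AU018091 (chr7:3154658-3169203, minus strand) and Krt84 (chr15:101525026-101532820, minus strand) rose. AU018091 was at 3.29, 6.15 and 9.34 CPM in control and 6.80, 11.8 and 19.1 CPM in Kdm5b zygotes, with 8 of 10 above every control. It was 104% higher (log2 fold change 1.03 ± 0.18, edgeR adjusted p = 0.00803). Krt84, a keratin gene, was at 42.5, 52.1 and 58.2 CPM in control and 59.3, 62.8 and 74.1 CPM in Kdm5b zygotes (0.34 ± 0.07, adjusted p = 0.0378). It was the 1 higher gene (0.00838% of the genes tested) in which the groups did not overlap.

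The next 10 higher genes did not pass the test, and 5 of them were at levels of a few CPM. Greb1l was at 0.234 to 1.22 CPM in control and 0.636 to 4.43 CPM in Kdm5b zygotes (log2 fold change 1.65, edgeR adjusted p = 0.0544). Frmd3 had the largest estimate among them, 2.41, from 0 to 1.77 CPM in control and 0.162 to 5.95 CPM in Kdm5b zygotes (adjusted p = 0.1). Tpst1 (0.92), Tbcel (1.49) and Taldo1 (0.71), a pentose phosphate pathway enzyme, also had higher estimates from levels of a few CPM. The other 5 were at higher levels and had smaller estimates: Obox2, a homeobox gene of the oocyte and early embryo, went from a median of 845 to 1051 CPM (0.26), and Zfp345 (0.35), Wbp1l (0.26), Arhgef39 (0.31) and Pclo (0.29) were similar in size.

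How firmly each call stands was read by leaving out each zygote in turn. Lama5, Usp19, Smc4, 1110037F02Rik and AU018091 passed in all 20 such fits. Sympk passed in 17, Nrd1 in 15, AI314180 and Mcm3ap in 12, Eif4g3 in 10, Mbd3 in 9, Wdr36 in 8, Sart1 and Krt84 in 7, Supt5 in 6 and 6430548M08Rik in 5. Without control zygote 8, or without Kdm5b zygote 4 or 5, 5 of the 16 passed. Without the 2 libraries that lie apart 6 passed (Lama5, Usp19, Smc4, 1110037F02Rik, AU018091 and Supt5), and in a single edgeR fit of all 35 samples 0 passed (146 genes higher and 228 lower at an unadjusted p under 0.05), while the Wald test of DESeq2 kept all 16. Library indexes came in blocks of 8 consecutive numbers. Each of the 16 had the same sign within the 3 blocks that hold zygotes, although the same zygotes had chosen them. The size was even in AU018091 (1.03, 0.99 and 1.09) and uneven in Smc4 (-0.94, -0.94 and -0.36) and Mcm3ap (-0.64, -0.23 and -0.94).

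Whether levels graded with the Kdm5b share at collection was asked inside the 10 Kdm5b zygotes, with no use of the water controls. Of 12890 genes tested for a slope on the log2 share of Kdm5b, 0 passed the edgeR test, with 219 positive (1.7%) and 213 negative (1.65%) slopes at an unadjusted p under 0.05. All 14 genes that fell had a negative slope estimate, against 50.3% of all genes tested in the zygote comparison. In 5 of the 14 the unadjusted p was under 0.05, against a background of 1.65%. The same Kdm5b zygotes enter both comparisons, and all slopes are fitted on the same 10 zygotes, so they are not independent. The share was 10.4% in Kdm5b zygote 2 and 8.54% in Kdm5b zygote 4, against 2.30% to 5.94% in the others. How far the slopes rest on these zygotes is not given here.

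These 5 were Nrd1, Mcm3ap, 1110037F02Rik, Usp19 and AI314180. The level of Nrd1 was lower by 0.63 on the log2 scale for each doubling of the Kdm5b share (slope -0.63, edgeR unadjusted p = 0.00021). It was at 32.6 CPM in the zygote with the smallest share and 10.4 CPM in that with the largest. The slopes of the others were -0.38 for Mcm3ap, -0.22 for 1110037F02Rik, -0.20 for Usp19 and -0.14 for AI314180. Both genes that rose had slightly negative slopes, -0.12 for AU018091 and -0.02 for Krt84.

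**Figure D2:**
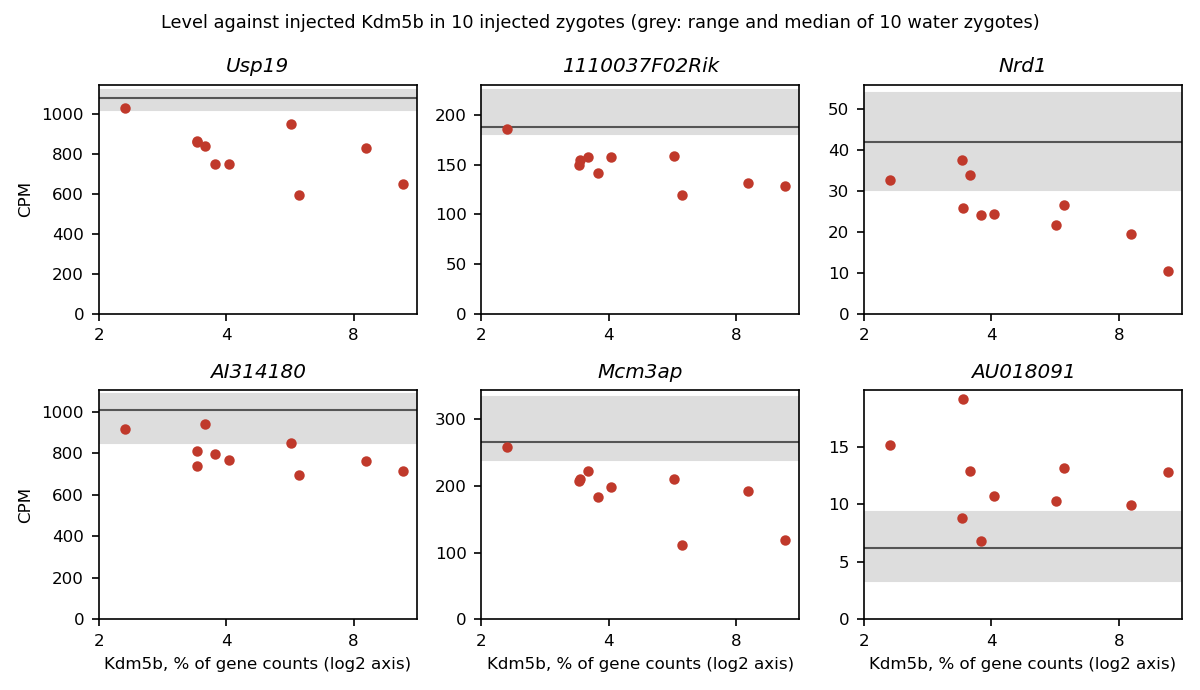
Level (CPM, y axis from 0) against the Kdm5b share of gene counts (percent, log2 axis) in the 10 Kdm5b zygotes for 6 called genes, with grey bands for the range and grey lines for the median of the 10 water zygotes. Nrd1 runs from 32.6 CPM at a share of 2.30% down to 10.4 CPM at 10.4%, while AU018091 shows no such order.

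The slopes with the smallest p belonged to other genes. Slc45a3 (slope 0.23), Dcp1a (0.33), a decapping factor of mRNA decay, and Pdzrn4 (0.55) had positive slopes, and Tex15 (-0.60), a meiotic gene, and the vault RNA Vaultrc5 (-0.68) negative slopes beside Nrd1. None passed the adjusted threshold, and of these 6 only Nrd1 and Slc45a3 differed between the groups at an unadjusted p under 0.05.

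Small shifts were then read across 50 lists of genes by function. Each list is given by its members tested, the number of them at an unadjusted p under 0.05 in each direction, to be read against 4.74% higher and 5.6% lower over all genes, and the median log2 fold change, to be read against 0.01. The shares over all genes rose with level. They were 2.72% higher and 1.84% lower in the lowest of 5 groups by mean CPM, and 6.54% and 10.5% in the highest. Lists were not matched for level, so for lists of abundant genes the shares over all genes are too small a background. The medians of 21 lists were above that of all genes. The 2 ends of the order were histone genes at 0.186 and aminoacyl-tRNA synthetases at -0.086, so that a typical member differed by a few percent up to little more than 10% of its level. Single zygotes overlapped in every summed list level given below.

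**Figure D3:**
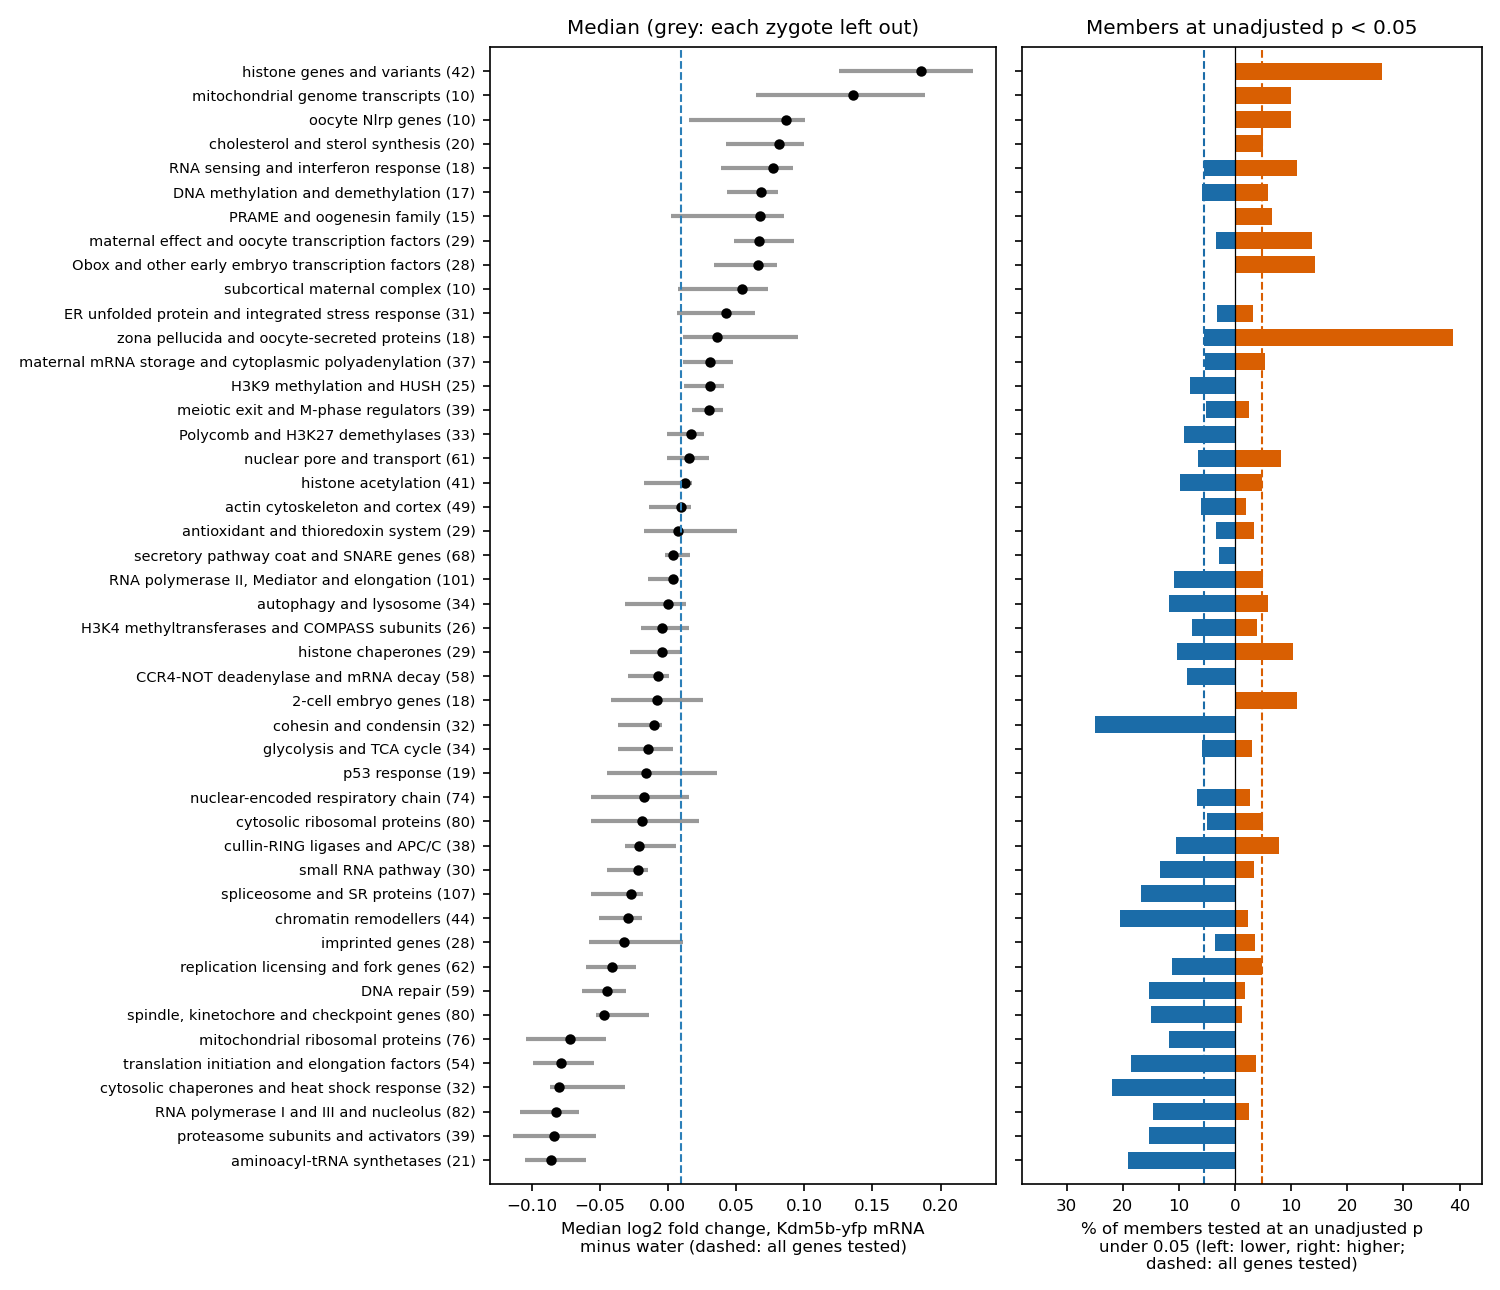
Left, median log2 fold change of the tested members of each list shown (x axis, Kdm5b-yfp mRNA minus water, number tested in brackets). Grey bars give the range when each zygote is left out, and the dashed line the median of all genes. Lists with few members tested are left out: H3K4 demethylases, cumulus and granulosa markers, sperm and testis transcripts, and immune and blood cell markers. Right, percent of members at an unadjusted p under 0.05, lower to the left and higher to the right, with dashed lines at the values of all genes. Histone genes lie highest at 0.186 and aminoacyl-tRNA synthetases lowest at -0.086.

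Histone genes and their expression factors had the highest median. Of the 53 listed genes that had a row 42 were tested, 33 had higher estimates, and 11 were higher and 0 lower at an unadjusted p under 0.05. The median was 0.186, between 0.125 and 0.224 when a zygote was left out, 0.108 without the 2 libraries that lie apart, 0.116, 0.167 and 0.026 within the 3 index blocks, and 0.167 after correction for GC content and length of transcripts. The summed level ran from 4825 to 5930 CPM in control and from 5383 to 6281 CPM in Kdm5b zygotes. None of these genes passed the adjusted threshold.

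Hist1h2bk, an H2B gene, was at 90.8, 107 and 138 CPM in control and 114, 130 and 151 CPM in Kdm5b zygotes (log2 fold change 0.27 ± 0.07, edgeR adjusted p = 0.111). All 10 Kdm5b zygotes were above the control median, and 4 were above every control. Hist1h2ac (0.41) and Hist1h2aa (0.36) encode H2A proteins. H3f3a, a gene for the replacement histone H3.3 whose mRNA is polyadenylated, was at 101, 121 and 162 CPM in control and 123, 141 and 178 CPM in Kdm5b zygotes (0.23). The linker histone gene Hist1h1a (0.19), the variant genes H2afx (0.21) and H2afz (0.44), and the H4 genes Hist4h4 (0.26) and Hist1h4c (0.24) also had higher estimates at an unadjusted p under 0.05. H3f3a and these 5 were named after their values were seen, since they complete the count with the 2 expression factors that follow.

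Factors that make histone mRNA went both ways. Npat, the transcriptional coactivator of histone gene clusters, had a log2 fold change of 0.27, and Slbp, the protein that binds the stem-loop, 0.13, from a median of 1401 CPM in control to 1593 CPM in Kdm5b zygotes. Casp8ap2, a protein of the bodies where histone mRNA is made, had -0.07, with 9 of 10 Kdm5b zygotes below the control median, and Sympk, described above, fell. Genes with the stem-loop letters and genes without them both leaned higher. Of the former, 19 were tested with 15 higher estimates, 5 of them at an unadjusted p under 0.05, and a median of 0.209. Of the latter, 23 were tested with 18 higher estimates, 6 of them at an unadjusted p under 0.05, and a median of 0.134. These also include the expression factors Npat, Slbp, Lsm10, Lsm11 and Casp8ap2 and Hist genes such as Hist1h2aa and Hist1h1a. The variant genes among them were mixed. H2afz and H3f3a are given above, and H1fx (0.08), H3f3b (0.04), H1foo (0.02) and H2afj (0.01) differed little. H1f0 (-0.06), H2afy (-0.09), H2afv (-0.18) and H2afy2 (-0.28) had lower estimates. Many histone genes are near-identical copies, and fragments that map to several of them were not counted, so the level of a single histone gene is uncertain. In the 2C samples the list's median was 0.085, with 24 of 40 members higher, against 5697 of 11356 genes tested in both stages.

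**Figure D4:**
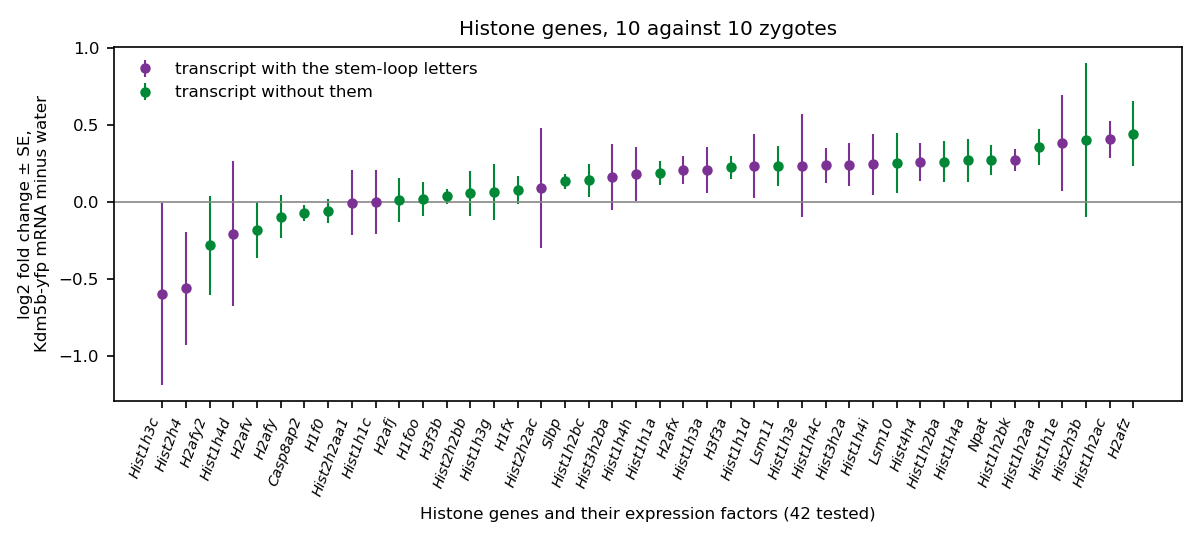
Log2 fold change with its standard error (y axis, Kdm5b-yfp mRNA minus water) of the 42 tested genes of the histone list, ordered by value along the x axis, purple with and green without the stem-loop letters. Of the 42 points 33 lie above 0, in both colours.

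Genes of the oocyte's secreted coat and growth factors were mixed in direction but held many small differences. Of 18 tested, 7 were higher and 1 lower at an unadjusted p under 0.05, and the median was 0.036. Oosp1 was at 422, 495 and 585 CPM in control and 465, 599 and 693 CPM in Kdm5b zygotes (0.25), and Oosp3, of the same secreted family, had 0.25. Gdf9, the oocyte growth factor that acts on cumulus cells, had 0.32, from a median of 656 to 754 CPM. The summed level was 4058 to 5167 CPM in control and 4540 to 5799 CPM in Kdm5b zygotes. The median was 0.116 without the 2 libraries that lie apart and fell below that of all genes, to -0.073, within index block 10. In 2C samples, which share no library with the zygotes, 17 of the 18 were higher, with a median of 0.281. Over all genes tested in both stages 5697 of 11356 were higher there. Other lists described below also had large medians in 2C samples, in the lower direction. They were -0.253 for the nucleolar list (13 of 82 higher), -0.230 for spliceosome genes (23 of 107) and -0.237 for cytosolic chaperones (6 of 32).

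Transcription factors of the oocyte and early embryo had medians slightly above that of all genes. Obox genes and other early factors had 4 higher and 0 lower of 28 tested at an unadjusted p under 0.05 and a median of 0.066. Beside Obox2 these included Esrrb (0.37), a nuclear receptor of pluripotent cells, and Dppa2 (0.26), an activator of early embryonic genes. Within index block 9 the list's median was -0.024, on the other side of all genes, and in 2C samples it was -0.132. Maternal effect genes had 4 higher and 1 lower of 29 and a median of 0.067, with Yap1 (0.13) and Tcl1b1 (0.25) higher and Npm2 (-0.20), the chaperone that decondenses sperm chromatin, lower in estimate. Genes that mark the 2-cell embryo did not lean either way. Of 39, 18 were tested, with 8 higher and 10 lower estimates and a median of -0.008. Zim3 (0.40) and Tcstv1 (0.39) were higher at an unadjusted p under 0.05, and Zfp352 had an estimate of -1.21 at a median of 1.75 CPM in control and 0.76 CPM in Kdm5b zygotes.

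Chromosome structure genes showed the opposite tail. In the cohesin and condensin list 0 of 32 were higher and 8 lower at an unadjusted p under 0.05 (25%), although the median was only -0.010, so the list held a few lower members and not a shift of all. Beside Smc4 these were led by Smc1b (-0.35), the meiotic cohesin ATPase, from a median of 56.1 to 40.02 CPM, and Ncapg (-0.24), a condensin subunit, from 532 to 447 CPM. Spindle and checkpoint genes had 1 higher and 12 lower of 80 and a median of -0.047, with Cdk5rap2 (-0.31), a centrosome protein, Ndc80 (-0.38), the kinetochore's microtubule binder, and Dlgap5 (-0.18) first. The median of the spindle list crossed that of all genes within index block 9. In control zygotes 3, 4, 8 and 10 its summed level was 20773 to 22124 CPM. The other controls ran from 19073 to 19657 and Kdm5b zygotes from 18872 to 21087 CPM. DNA repair genes had 1 higher and 9 lower of 59 and a median of -0.044. Blm, a helicase of recombination repair, was at 102, 111 and 121 CPM in control and 85.3, 94.97 and 106 CPM in Kdm5b zygotes, with 9 of 10 below every control (log2 fold change -0.24 ± 0.05, edgeR adjusted p = 0.0544). Replication genes had 3 higher and 7 lower of 62 and a median of -0.041, with Ticrr (-0.15), Rrm1 (-0.38) and Mcm7 (-0.22) first.

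Genes that make and process RNA leaned lower. Of 107 spliceosome genes 0 were higher and 18 lower at an unadjusted p under 0.05 (16.8%), with a median of -0.027, and Cwc22 (-0.26), Crnkl1 (-0.17) and Sf3b2 (-0.20) came first. Genes of RNA polymerase I, RNA polymerase III and the nucleolus, which make ribosomal and transfer RNA, had 2 higher and 12 lower of 82 and a median of -0.082, with 58 estimates below 0. Ncl, the abundant nucleolar protein nucleolin, was at 1183, 1476 and 1623 CPM in control and 931, 1166 and 1481 CPM in Kdm5b zygotes (log2 fold change -0.30 ± 0.07, edgeR adjusted p = 0.0941). Its slope on the Kdm5b share was -0.22 (unadjusted p = 0.0054). Gnl2 (-0.33) and Rrp12 (-0.30), of ribosome assembly, followed. Control zygotes 3, 4, 8 and 10 held the highest summed levels of both lists. Spliceosome genes came to 16254 to 16651 CPM in them, 14796 to 15825 in the other controls and 14488 to 16009 in Kdm5b zygotes. For the nucleolar list these were 10056 to 10798, 8704 to 9617 and 8428 to 9829 CPM. How far the lower estimates rest on those controls was not tested. RNA polymerase II, Mediator and elongation genes had a median near that of all genes, 0.004, with 5 higher and 11 lower of 101, led by Supt5, Supt6 (-0.23) and Gtf2f1 (-0.27).

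Several lists of protein synthesis, folding and breakdown were among the 7 with the lowest medians. These 7 also hold the nucleolar list above and the list of H3K4 demethylases and grouped genes below. Aminoacyl-tRNA synthetases, which charge transfer RNAs, had 0 higher and 4 lower of 21 and a median of -0.086, led by Gars (-0.19), Cars (-0.23) and Rars (-0.26). Translation factors had 2 higher and 10 lower of 54 and a median of -0.079, with Eif6 (-0.34), which keeps ribosomal subunits apart, and Gspt1 (-0.21), a release factor, after Eif4g3. They summed to 10796 to 11023 CPM in control zygotes 3, 4, 8 and 10. The other controls ran from 10003 to 10517 and Kdm5b zygotes from 10094 to 10629 CPM. For synthetases these ranges were 1981 to 2152, 1785 to 1979 and 1773 to 1960 CPM. How far the medians rest on those controls was not tested. Mitochondrial ribosomal proteins had 0 higher and 9 lower of 76 and a median of -0.072. In that list control zygotes 4 (1690 CPM) and 8 (1754 CPM) lay inside the range of controls 1, 2, 5, 6, 7 and 9, 1577 to 1874 CPM. Cytosolic ribosomal proteins were not among these 7. They had 4 higher and 4 lower of 80 and a median of -0.019, and their median crossed that of all genes without control zygote 3 and within index block 9.

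Proteasome subunits had 0 higher and 6 lower of 39 and a median of -0.084, led by Psmd4 (-0.27) and Adrm1 (-0.24), both ubiquitin receptors, and Psma3 (-0.29). They summed to 3928 to 4177 CPM in control zygotes 3, 4, 8 and 10. The other controls ran from 3546 to 3840 and Kdm5b zygotes from 3596 to 3962 CPM. How far the median rests on those controls was not tested. Cytosolic chaperones had 0 higher and 7 lower of 32 and a median of -0.080, led by Hspa14 (-0.24), Stip1 (-0.26), which links HSP70 to HSP90, and Cct8 (-0.18), a chaperonin subunit. Among the 10 Kdm5b zygotes, 25 of the 32 chaperone genes had a negative slope on the Kdm5b share, 5 of them at an unadjusted p under 0.05. Within index blocks the proteasome median ranged from -0.277 in block 10 to -0.005 in block 9, and the chaperone median from -0.241 in block 10 to 0.003 in block 9. The chaperone median was also smaller, -0.031, without control zygote 2 and -0.042 without Kdm5b zygote 2. Summed chaperone levels of control zygotes 3, 4, 8 and 10 (7791 to 8316 CPM) overlapped those of the other controls (6881 to 7905 CPM).

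Transcripts of the mitochondrial genome went the other way from the nuclear genes of mitochondrial translation. Of 10 tested, 8 had higher estimates, 1 of them at an unadjusted p under 0.05, and the median was 0.136. It was 0.065 without control zygote 10, whose summed level of 5224 CPM lay below the 7265 CPM of the next control, and 0.060 within index block 8. ND4, a subunit of respiratory complex I, had 0.24. All 10 had a positive slope on the Kdm5b share. Their summed level was 5224 to 10135 CPM in control and 7028 to 11134 CPM in Kdm5b zygotes, and all transcripts come from 1 genome in long precursors, so they are not independent. Nuclear-encoded respiratory chain genes had a median of -0.017, with 2 higher and 5 lower of 74.

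Genes that answer to foreign RNA were read as a check on the injection itself. Of 42 RNA sensing and interferon response genes 18 were tested, with 2 higher and 1 lower at an unadjusted p under 0.05 and a median of 0.077. The median was 0.019 without the 2 libraries that lie apart, 0.039 without control zygote 8 and 0.040 without Kdm5b zygote 4. Eif2ak2, the kinase that senses double-stranded RNA, had an estimate of 0.95 from a median of 0.908 to 2.11 CPM, Rela 0.16 and Adar -0.14. The summed level of the list was 654 to 747 CPM in control and 665 to 746 CPM in Kdm5b zygotes. Of 19 p53 response genes 0 were at an unadjusted p under 0.05 in either direction (edgeR), with a median of -0.016. Cdkn1a (-0.91) and Mdm2 (-0.21) had lower estimates. The part of the injected RNA in the other results was not tested.

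Lists of RNA decay and RNA storage differed in direction. In the list of deadenylation and mRNA decay genes 0 of 58 were higher and 5 lower at an unadjusted p under 0.05, with a median of -0.007. These were led by Edc4 (-0.33), a scaffold of decapping, Exosc10 (-0.23), a nuclease of the nuclear exosome, and Cnot1 (-0.19), the scaffold of the CCR4-NOT deadenylase. Genes of maternal mRNA storage and cytoplasmic polyadenylation had 2 higher and 2 lower of 37 at that p, 23 higher estimates and a median of 0.031, which was 0.003 without the 2 libraries that lie apart. Beside Sympk, the lower one was Ybx2 (-0.24), which packages stored mRNA in germ cells, from a median of 303 to 247 CPM. In the small RNA pathway 1 gene was higher and 4 lower of 30 with a median of -0.022, led by Tdrkh (-0.31), Tarbp2 (-0.31) and Drosha (-0.19), the nuclease that starts miRNA processing.

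Further lists of metabolism, stress and chromatin follow. Sterol synthesis genes had 15 higher estimates of 20 and a median of 0.082, but only Hsd17b7 (0.25) was higher at that p. Genes of the ER and integrated stress responses had 1 higher and 1 lower of 31 and a median of 0.043. Polycomb and H3K27 demethylase genes had 0 higher and 3 lower of 33 (Ezh2 -0.17, Phc1 -0.14 and Rbbp7 -0.12) and a median of 0.017. Histone acetylation genes had 2 higher and 4 lower of 41 and a median of 0.012, with Hdac6 (-0.51) and Sirt7 (-0.37) first. Genes of coats and SNAREs in the secretory pathway had 0 higher and 2 lower of 68 and a median of 0.004.

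The remaining lists are given by their higher and lower members at an unadjusted p under 0.05 and their median. Among genes of the oocyte, the subcortical maternal complex had 0 and 0 of 10 (0.054), the oocyte Nlrp genes 1 and 0 of 10 (0.087), the PRAME and oogenesin family 1 and 0 of 15 (0.068) and regulators of meiotic exit and M phase 1 and 2 of 39 (0.030). Among chromatin genes, H3K9 methylation and HUSH genes had 0 and 2 of 25 (0.031), DNA methylation and demethylation genes 1 and 1 of 17 (0.068), histone chaperones 3 and 3 of 29 (-0.004) and imprinted genes 1 and 1 of 28 (-0.033). In the cell's upkeep, glycolysis and TCA cycle genes had 1 and 2 of 34 (-0.015), the antioxidant and thioredoxin system 1 and 1 of 29 (0.008), autophagy and lysosome genes 2 and 4 of 34 (0.0004), cullin-RING ligases and APC/C 3 and 4 of 38 (-0.021), nuclear pore and transport genes 5 and 4 of 61 (0.015) and genes of the actin cortex 1 and 3 of 49 (0.009). Sperm and testis transcripts had 0 and 0 of 3 tested (0.029) and immune and blood cell markers 0 and 0 of 3 (0.076).

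The list of H3K4 demethylases and genes grouped with them, without Kdm5b, had a median of -0.077 over 7 tested. It was among the lower lists, with 0 higher and 1 lower at an unadjusted p under 0.05. The median was between -0.108 and -0.023 when a zygote was left out. Kdm1a (-0.10), Kdm1b (0.006), Kdm2b (0.13), Kdm5a (-0.10) and Kdm5c (0.06) had log2 fold changes of mixed sign. Kdm2a and Mina are grouped with these and are not established demethylases of H3K4. The list's median is the value of Mina (-0.077), and Kdm2a is its lower member, so its place among the lower lists rests on these. Kdm2a, at 68.1 to 104 CPM in control and 61.9 to 82.95 CPM in Kdm5b zygotes, had the smallest p (-0.19 ± 0.08, edgeR adjusted p = 0.375). Kdm5a, the closest relative of Kdm5b in this list, was at 3.91 to 11.3 and 3.48 to 8.33 CPM, and Kdm5d did not pass the filter. Of 26 methyltransferase and COMPASS genes tested, 1 was higher and 2 lower at an unadjusted p under 0.05, with a median of -0.004. Cxxc1, the subunit that brings the SETD1 complex to CpG islands, had -0.23, Ash2l -0.16 and Wdr5 0.10. Chromatin remodellers had 1 higher and 9 lower of 44 (20.5% lower), led by the BAF subunits Smarcb1 (-0.35), Smarcc1 (-0.22) and Smarce1 (-0.18), with a median of -0.029.

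Direction varied with the CpG content of the promoter. The 9626 tested genes with a RefSeq promoter were split into 5 equal groups. In the group poorest in CpG (0 to 10 per promoter) 127 genes were higher and 68 lower at an unadjusted p under 0.05, and in the richest (31 to 65) 65 were higher and 123 lower. The 3 groups between had 99 and 102, 72 and 122, and 70 and 128. The medians were 0.036 in the poorest and 0.002 in the richest group, a difference of 0.0347. Medians of single zygotes over the CpG-poor genes, relative to the control mean, overlapped, from -0.020 to 0.058 in control and from 0.015 to 0.112 in Kdm5b zygotes. Krt84, Zfp345 and Obox2, with 2 to 4 CpG, lie in the poorest group, and Sympk, Eif4g3 and 6430548M08Rik, with 35 to 38, in the richest. Pclo, with 35 and a higher estimate, is also in the richest group.

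Other properties moved with these counts. Genes with GC-poor transcripts had a median of 0.028 and those with GC-rich transcripts -0.016. After correction for transcript GC and length the median of the CpG-poor group was 0.030 and that of the CpG-rich group -0.005. In the highest of 5 groups by level, 29 of 269 CpG-poor genes were higher and 20 lower at an unadjusted p under 0.05. Of 557 CpG-rich genes there, 29 were higher and 60 lower. The lowest group by level showed no such lean, with 16 and 15 of 610 CpG-poor and 6 and 6 of 252 CpG-rich genes. In the group next to the lowest these were 26 and 8 of 457 and 7 and 10 of 310. Genes on the X chromosome had a median of 0.050 with 22 higher and 12 lower of 377 at that p. Genes on chromosome 13, which holds the large histone cluster, had 0.040 with 41 higher and 19 lower of 488. Over all genes, counts at an unadjusted p under 0.05 were largest in the highest of 5 groups by level for either direction, with 156 higher and 251 lower of 2387 genes. Depth moves with that count, and its part in it was not tested.

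Repeats gave no call. Of 2616 repeats tested on estimated counts 0 passed an adjusted p of 0.05 in either direction (0.0% called by the edgeR quasi-likelihood test, 0 by DESeq2), with 59 higher (2.26%) and 81 lower (3.1%) at an unadjusted p under 0.05. The simple repeats (AGAA)n (-0.49) and (CCGGAA)n (-0.63) and the LINE-1 element L1MdN_I had the smallest p among lower repeats. L1MdN_I was at 39.2, 71.1 and 93.2 CPM of repeat counts in control and 45.6, 49.3 and 55.4 in Kdm5b zygotes (-0.46 ± 0.11, edgeR adjusted p = 0.308). All 10 Kdm5b zygotes were below the control median and inside the control range. LTRIS_Mus (0.26), (AGAGT)n (0.53) and (CCCCGG)n (0.29) had the smallest p among higher repeats.

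By family, the mouse LINE-1 elements named L1Md leaned lower. LINE-1 elements copy themselves through RNA and are transcribed in early embryos. Of 25 subfamilies tested 23 had lower estimates, 6 at an unadjusted p under 0.05, and the median was -0.119 against -0.009 for all repeats. It was -0.118 without the 2 libraries that lie apart and -0.213, -0.078 and -0.005 within the 3 index blocks, so the difference was nearly absent in block 10. The 6 names at that p were L1MdN_I, L1MdA_III, L1MdMus_II, L1MdFanc_II, L1MdV_III and L1MdGf_I. L1MdTf_I (-0.04), L1MdTf_II (-0.09) and L1MdTf_III (-0.03) had estimates smaller in size than the median. Medians of single zygotes over the names, relative to the control mean, ran from -0.460 to 0.351 in control and from -0.300 to 0.118 in Kdm5b zygotes. In 2C samples the median over L1Md names was 0.164, of the opposite sign. The ERVL elements MERVL and MT2, which are transcribed at genome activation in the 2C embryo, had a median of -0.034 over 8 names, 4 higher and 4 lower. Their summed level had a median of 18390 CPM in control and 20965 CPM in Kdm5b zygotes. MT2B1, the most abundant name, had 0.20 (edgeR unadjusted p = 0.0107, adjusted p = 0.838) and was the 1 name at an unadjusted p under 0.05. In it 6 of 10 Kdm5b zygotes were above every control. It was named after its values were seen. MERVL-int ran from 277 to 13574 CPM in control and from 754 to 5751 in Kdm5b zygotes, a wide spread in which the groups overlapped. In 2C samples the MERVL and MT2 median was -0.594, with 0 higher and 5 lower of 8 at an unadjusted p under 0.05. Over all repeats tested there 47 were higher and 124 lower of 2505. IAP elements had a median of -0.068 over 23 names and MT elements 0.049 over 20 in zygotes. In 2C samples these medians were -0.068 and 0.039.

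tRNA-derived repeats had the largest median of any family, 0.520 over 32 names, with 31 higher estimates and 7 at an unadjusted p under 0.05. Their level varied widely in both groups: relative to the control mean, the median over names ran from -1.01 to 1.18 on the log2 scale in control and from -0.42 to 1.52 in Kdm5b zygotes. Only 2 Kdm5b zygotes lay outside the control range. The names share reads, and the counts are correlated. The median stayed between 0.374 and 0.689 when a zygote was left out and was 0.218, 0.745 and 0.490 within index blocks. Inside the group of Kdm5b zygotes 25 of 32 had a negative slope on the Kdm5b share, 0 of them at an unadjusted p under 0.05 (edgeR). Over all repeats 1461 of 2615 had a negative slope. In 2C samples the tRNA median was 0.417, with 29 of 32 higher, against 1238 of 2505 repeats tested there.

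**Figure D5:**
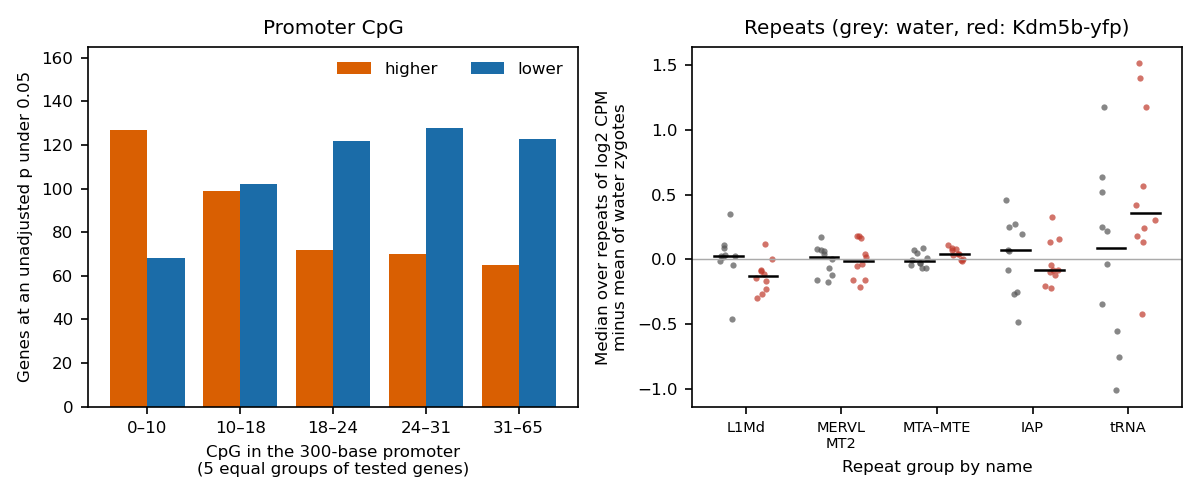
Left, number of genes at an unadjusted p under 0.05 (bars from 0) that were higher or lower in Kdm5b zygotes, in 5 equal groups of tested genes by CpG in the 300-base promoter (x axis). Right, median over the names of 5 repeat families of log2 CPM minus the mean of the water zygotes (y axis). Each zygote is 1 point, grey for water and red for Kdm5b-yfp mRNA, with group medians as lines. CpG-poor genes lean higher (127 against 68) and the tRNA points spread from -1.01 to 1.52.

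The genes called in zygotes were looked up in 2C samples. Of the 14 lower genes 11 had lower estimates there, against 49.8% of all genes tested in both stages, and 3 were lower at an unadjusted p under 0.05, against 4.97%. These were Sart1 (-0.78), Smc4 (-0.62) and Supt5 (-0.61). Lama5 (0.27), Nrd1 (0.08) and 6430548M08Rik (0.01) had estimates above 0. Of the genes that rose, AU018091 had -0.29 and Krt84 0.30. In the 2C samples 3 genes passed the edgeR test, all lower (0.0245% of 12244), while 551 were higher (4.5%) and 601 lower (4.91%) at an unadjusted p under 0.05.

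Whether the effect of the injection differed between the stages was tested for each gene as an interaction over all 35 samples. Of 13778 genes 15 passed (edgeR quasi-likelihood test, Benjamini-Hochberg), 14 with the higher value in zygotes (0.102%) and 1 with the lower (0.00726%). At an unadjusted p under 0.05 the shares were 5.33% and 3.77%. The smallest p belonged to Ddx5, an RNA helicase, with a difference of 0.73 ± 0.12 (adjusted p = 0.00772). Its level was similar in zygotes, at a median of 323 CPM in control and 341 CPM in Kdm5b zygotes, and lower in Kdm5b 2C samples, at 308 and 209 CPM. Obox7 (1.04, adjusted p = 0.0152) and Ttk (0.66, adjusted p = 0.0152), the spindle checkpoint kinase, followed the same order, with zygote values of -0.03 and -0.12 and 2C values of -1.07 and -0.79. Stage, thawing and day of library preparation cannot be told apart in this difference.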

How the data were processed

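The authors deposited a table of counts, whole fragments per RefSeq gene (24480 genes), and a table of estimated counts per repeat (18536 repeats) from salmon run on all RepeatMasker instances of each name, for all 35 samples. Per the methods and the submitters' processing notes, reads were trimmed with fastp 0.21.0, aligned to GRCm38 with STAR 2.7.3a and counted by strand with featureCounts 1.5.1 without multi-mapping fragments, and DESeq2 1.30.1 was used. Repeats that overlap Kdm5b exons had been removed by the authors. Of the repeat values 5.04% were not whole and all were rounded. The number of columns of no known sample was 0.

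Here the Kdm5b row was removed, and zygotes were fitted alone with edgeR 4.0.16 in R 4.3.3 (TMM, filterByExpr with a minimum count of 10, quasi-likelihood test, Benjamini-Hochberg over all genes or repeats). CPM are computed without Kdm5b and scaled by TMM. Single measures were compared by permutation (scipy 1.17.1). Alternatives used limma 3.58.1, DESeq2 1.42.0, other filters, the Kdm5b row kept, replicate and index blocks, all samples in a single fit, and each zygote left out. Leaving out 2 libraries, GC correction (lowess span 0.3) and fits within index blocks were chosen after seeing the data. Scripts were tested on simulated data. Of 2146 gene symbols in the lists 2122 were matched in the table. Promoter CpG was known for 74.7% of genes and transcript GC for 98.7%. Since fewer than 80% have a promoter, the description by CpG covers only the genes that do. Histone stem-loops came from GENCODE, promoters from RefSeq.

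The comparison, gene lists and members were chosen with earlier results of these data known. Genes named are the 12 higher and 14 lower with the smallest p and any other called gene, the 3 members of each list, 3 repeats, 3 slopes in each direction and 3 stage differences with the smallest p, and H3K4 demethylases, AU018091 and Greb1l. Replicate numbers do not pair the samples: correlations of same-numbered zygotes ran from -0.0821 to 0.0983. No 2 zygotes of the same group agreed within sampling noise.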

Additional observations from a re-analysis of the deposited data

Results flagged for a closer look

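Single zygotes that stood apart from their group were looked for in 66 groups of 10 values, by the gap to the next zygote as a share of the range; chance flags about 1 in 20 groups. Kdm5b zygote 3 had the lowest mitochondrial share of gene counts in its group, 0.714% against 0.898% in the next and a median of 0.957%, and the highest summed level of proteasome genes, 3962 CPM against 3747 in the next. Control zygote 3 had the highest Lama5 level, 90.1 CPM against 58.2 in the next, and the highest Supt5 level, 222 CPM against 179. Without it Lama5 remained called and 6 genes in all were called. Smc4 was at 453 CPM in Kdm5b zygote 10 against 321 in the next. Wdr36 was at 59.4 CPM in control zygote 10 against 73.02 in the next, and at 83.2 CPM in Kdm5b zygote 7 against 64.1. 6430548M08Rik was at 44.8 CPM in control zygote 1 against 56.4 in the next.

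The effect of Kdm5b-yfp mRNA differed between zygotes and 2C samples in the interaction test of edgeR (Benjamini-Hochberg) for Ddx5 (0.73 on the log2 scale, adjusted p = 0.00772), Obox7 (1.04, adjusted p = 0.0152) and Ttk (0.66, adjusted p = 0.0152). All 3 were lower in the injected 2C samples, while their values in zygotes lay between -0.12 and 0.07.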

How the results depend on the processing

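The count of 16 called genes became 101 by the Wald test of DESeq2, which kept all 16, and 0 in a single fit of all 35 samples. It was 6 without the 2 libraries that lie apart (5 lower, 1 higher) and 4, 1 and 3 within index blocks 8, 9 and 10, which hold 8, 8 and 4 zygotes. Leaving out each zygote gave 5 to 29: 6, 9, 29, 8, 5 and 9 without control zygote 3, 4, 5, 6, 8 and 10, and 7, 5, 5 and 9 without Kdm5b zygote 2, 4, 5 and 9. DESeq2 size factors (19), voom (15), no filter (19), a mean of at least 50 counts (20), the Kdm5b row kept (20), an index covariate (20) and GC correction (18) stayed within 1.5 times of it. The replicate block gave 19, and since the numbers do not pair the zygotes nothing is read from it.

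Repeats went from 0 calls to 30 with no filter on low counts, 2 without simple repeats, 1 with the replicate block and 0 to 2 when a zygote was left out. The slope on Kdm5b had 0 calls in every alternative. The 15 stage differences became 36 with intact 2C embryos alone and 342 with the index covariate, and the 3 calls of the 2C comparison became 0 and 253. The number of lists above all genes, 21, ran from 19 to 24 when a zygote was left out, and the CpG difference of 0.0347 from 0.0305 to 0.0457. Frmd3 reversed within block 8, to -0.57. Causes of these moves were not tested. Single zygotes overlapped in every summed list level, and depth limits genes of a few CPM, such as Greb1l and Frmd3.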
